A study of Mus musculus with 6 samples.

Results

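Meiotic and germ cell genes are mostly silent outside the germline, yet several of them give transcripts in cultured mouse embryonic stem (ES) cells. The genes described here are 10 meiotic and germ cell genes named by symbol: Stra8, Dazl, Hormad1, Sycp1, Sycp3, Stag3, Piwil2, Tdrd12, Mael and Fmr1nb. The values are those that the authors deposited in a table of 10128 genes, matched by symbol; the table holds 9 of the 10, and the expression of Sycp1 was not analysed here. Apart from Sycp1, the genes were selected on measured values. These were a level in these cells above the authors' filter and fold changes already known from the same table. Presence, level and fold change are therefore given as a description and not as a test.

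The study compared 3 RNA sequencing libraries of Tex19.1-/- cells, which lack the gene, with 3 libraries of Tex19.1+/- cells, which keep a working copy and serve as the control, so no wild-type cells enter the comparison. The parental line of both genotypes is E14Tg2a, an established mouse ES cell line with the strain background 129/Ola, and the cells were grown on gelatin in serum with leukaemia inhibitory factor at passages 12 to 18. Whether the 3 libraries of a genotype come from separate clones or cultures is not given in the sources used here, so the p-values may measure technical spread only. The table gives 1 log2 fold change, 1 mean level in log2 CPM (a read count divided by the library's total, on a fixed scale), 1 p-value and 1 adjusted p per gene. It holds no value per library, so the depth and the spread of the libraries are unknown. The header does not name the direction of the comparison. It was taken from Tex19.1, which had the lowest log2 fold change at -6.92 in the authors' deposited table, so that a positive value means a higher level in Tex19.1-/- cells.

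In the germline, retinoic acid and other cues switch on Stra8, cells enter meiosis, and each chromosome is built along an axis of meiotic cohesin and HORMA-domain and SYCP proteins on which homologs pair and recombine. A parallel pathway loads PIWI proteins with piRNAs, small RNAs that guide the silencing of transposons. In ES cells and somatic cells many of these genes are held down by DNA methylation at CpG-rich promoters and by PRC1.6, a Polycomb complex whose MGA and MAX subunits recognise E-box sequences and whose E2F6 subunit recognises E2F sites. Tex19.1 belongs to the same class of methylation-sensitive germline genes, and mice without it have defects in meiotic chromosome pairing and derepress some retrotransposons in testis.

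The 9 measured genes went both ways. Stra8, Piwil2, Hormad1, Stag3 and Mael fell, Tdrd12 and Fmr1nb rose, and Dazl and Sycp3 did not pass an adjusted p of 0.05 in the authors' deposited table. These are 5 falls and 2 rises, in a table where 26.5% of all genes were called lower and 25.2% higher by the same rule, 51.7% in all. At least 2-fold differences were rare in the table, with 1.1% of genes called lower and 0.365% called higher by that much, 1.46% in all. Stra8, Piwil2 and Hormad1 were at least 2-fold lower and Fmr1nb at least 2-fold higher in the authors' deposited table. Genes of like expression, those nearest in mean level, gave a second yardstick, their own spread in place of the authors' p. By it Stra8, Piwil2, Hormad1 and Stag3 were lower and Tdrd12 and Fmr1nb higher, where 4.32% of all genes were called lower and 1.89% higher, 6.21% in all. Since the genes were chosen with these values known, none of these counts is read as support for a change of germline genes as a class.

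**Figure D1:**
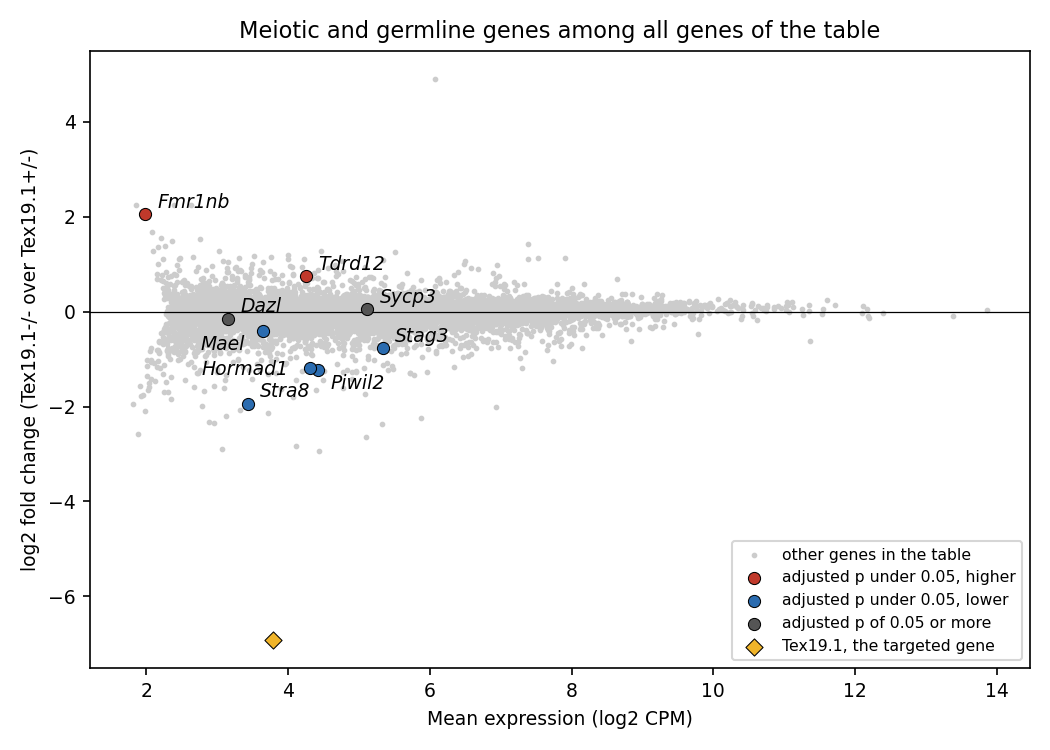
Each point is a gene of the authors' deposited table, with its mean level in log2 CPM across and its log2 fold change (Tex19.1-/- over Tex19.1+/-) up. The 9 measured germline genes are coloured by the authors' adjusted p: Stra8 at -1.94 and Fmr1nb at 2.06 lie at the edges of the cloud, Dazl and Sycp3 lie inside it, and the targeted gene Tex19.1 is the diamond at -6.92.

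Promoter sequence was available for 9 of the 10 genes, Sycp1 included and Piwil2 not, as windows of 250 bases before to 50 bases after the transcription start annotated by RefSeq on GRCm38.p6. They are shown because they separate the genes into a group with the letters that PRC1.6 subunits are known to recognise and a group without. Each window was searched on both strands for the E2F6-type motif TCCCGC and for the E-box CACGTG, which reads the same on both strands. In the 6 windows printed here, 5′ to 3′ on the strand of the gene, capitals mark these motifs, and no 2 matches overlap. The windows of Hormad1 (chr3:95559427-95559726, plus strand), Stag3 (chr5:138280259-138280558, plus strand), Mael (chr1:166238695-166238994, minus strand) and Sycp3 (chr10:88459337-88459636, plus strand) hold both motifs. Those of Stra8 (chr6:34920698-34920997, plus strand) and Fmr1nb (chrX:68761589-68761888, plus strand), the genes with the largest fall and the largest rise, hold neither. GENCODE starts Stra8 at 34920163 and Stag3 at 138280240, before their windows begin. Sequence before the windows, which includes those GENCODE starts and all that precedes them, was not searched.
Hormad1: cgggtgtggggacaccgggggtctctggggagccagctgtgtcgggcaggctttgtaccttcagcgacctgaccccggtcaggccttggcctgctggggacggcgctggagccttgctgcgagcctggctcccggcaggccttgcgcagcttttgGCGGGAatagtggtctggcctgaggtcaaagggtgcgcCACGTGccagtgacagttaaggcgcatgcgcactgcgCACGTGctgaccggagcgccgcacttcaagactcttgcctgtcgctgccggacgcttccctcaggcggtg
Stag3: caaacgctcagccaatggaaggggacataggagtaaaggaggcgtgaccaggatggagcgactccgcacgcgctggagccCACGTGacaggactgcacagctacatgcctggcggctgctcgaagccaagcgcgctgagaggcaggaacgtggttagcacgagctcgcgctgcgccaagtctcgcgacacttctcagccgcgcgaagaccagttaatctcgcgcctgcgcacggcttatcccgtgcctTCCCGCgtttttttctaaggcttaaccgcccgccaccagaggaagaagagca
Mael: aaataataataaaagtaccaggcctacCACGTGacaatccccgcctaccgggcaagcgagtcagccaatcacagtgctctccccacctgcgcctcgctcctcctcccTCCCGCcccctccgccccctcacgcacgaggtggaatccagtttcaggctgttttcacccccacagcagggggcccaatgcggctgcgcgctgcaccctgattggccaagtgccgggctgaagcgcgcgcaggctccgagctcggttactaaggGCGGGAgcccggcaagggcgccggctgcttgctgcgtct
Sycp3: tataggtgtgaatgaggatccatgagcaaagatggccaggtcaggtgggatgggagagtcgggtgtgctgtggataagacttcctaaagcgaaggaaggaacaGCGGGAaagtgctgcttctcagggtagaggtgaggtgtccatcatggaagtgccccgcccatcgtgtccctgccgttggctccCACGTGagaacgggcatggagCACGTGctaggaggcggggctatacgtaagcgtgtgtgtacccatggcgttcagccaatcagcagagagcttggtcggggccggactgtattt
Stra8: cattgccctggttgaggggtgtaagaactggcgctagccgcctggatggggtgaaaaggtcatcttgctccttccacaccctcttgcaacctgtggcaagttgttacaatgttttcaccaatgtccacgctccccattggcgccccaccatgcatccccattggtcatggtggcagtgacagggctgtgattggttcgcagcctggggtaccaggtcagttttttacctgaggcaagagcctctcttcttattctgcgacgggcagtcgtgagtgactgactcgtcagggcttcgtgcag
Fmr1nb: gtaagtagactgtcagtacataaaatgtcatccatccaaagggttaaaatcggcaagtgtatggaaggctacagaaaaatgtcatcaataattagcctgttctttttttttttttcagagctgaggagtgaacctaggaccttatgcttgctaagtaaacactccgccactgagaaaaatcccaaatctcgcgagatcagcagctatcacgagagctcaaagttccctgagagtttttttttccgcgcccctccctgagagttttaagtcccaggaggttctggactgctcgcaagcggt

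Both motifs stood in the windows of 5 genes, Hormad1, Stag3, Mael, Sycp3 and Sycp1, and neither stood in those of Stra8, Dazl, Tdrd12 and Fmr1nb. Over all 32841 promoter windows of the same length, 19.98% held the E2F6-type motif, 7.15% the E-box and 1.99% both. Among the 9802 windows of genes in the authors' deposited table these shares were 37.3%, 10.6% and 4.03%. Hormad1 has 2 E-boxes, the nearer starting 20 bases before the start site, and 1 E2F6-type motif that starts 95 bases before it. In Stag3 the E2F6-type motif lies across the RefSeq start site, from 2 bases before it, and the E-box begins 170 bases before that start. In Mael 1 E2F6-type motif begins 143 bases before the start site and another 11 bases after it.

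Apart from Dazl, windows with both motifs had more CpG sites than windows with neither. Part of this is built in, because each match of either motif contains a CpG site. Stag3 had 30 CpG sites in its window, Dazl 28, Hormad1 and Mael 24 each, Sycp1 21 and Sycp3 15, against a median of 7.0 over all windows and 22 over windows of genes in the table. Tdrd12 had 11 CpG sites, Stra8 10 and Fmr1nb 9. A motif match is a string of letters and not a bound site, and binding and methylation were not analysed here.

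**Figure D2:**
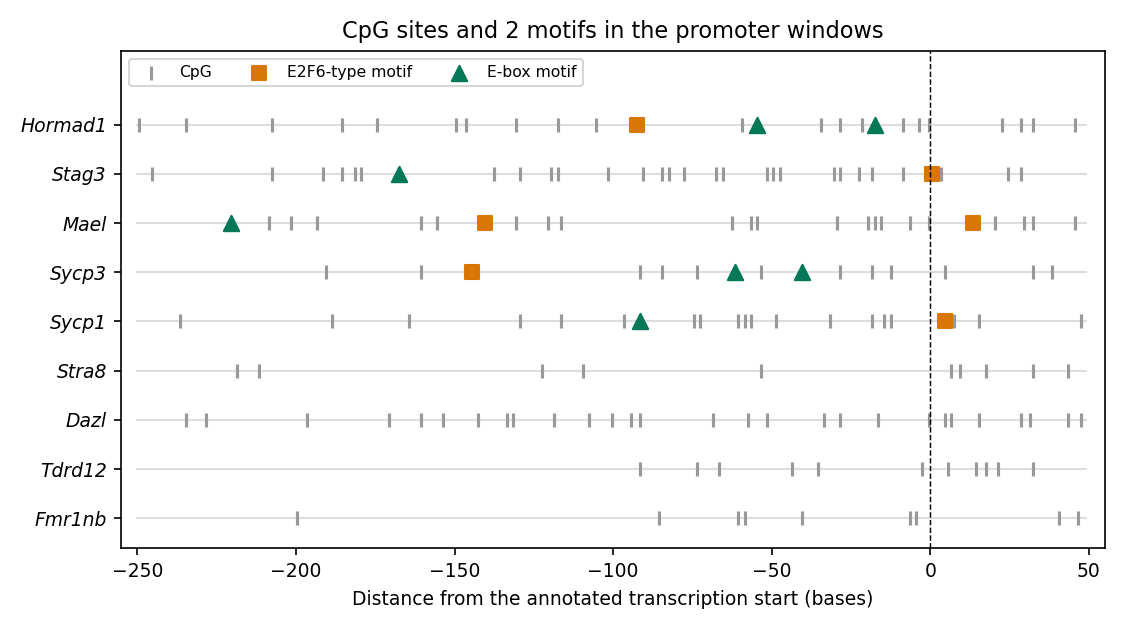
Promoter windows of the 9 genes with a RefSeq entry, from 250 bases before to 50 bases after the annotated start (dashed line), with CpG sites as grey ticks, E2F6-type motifs as squares and E-boxes as triangles. The upper 5 genes hold both motifs and the lower 4 hold neither.

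Of the 4 measured motif holders 3 fell and Sycp3 did not pass. Hormad1 stood at -1.20, Stag3 at -0.77, Mael at -0.41 and Sycp3 at 0.06 on the log2 fold change scale in the authors' deposited table. Of all 381 genes of the table with both motifs in a window, a set formed after the motifs of these genes had been seen, 113 were called higher and 76 lower in the authors' deposited table, or 29.7% and 19.9%. The shares over the 7640 genes with a promoter window were 25.2% and 26.0%. The median log2 fold change of the 381 genes was 0.03, against 0.00 for the 7640. Hormad1 had the lowest log2 fold change of the 381 and Stag3 the fifth lowest. Tsc22d1 at -1.03, Zp3 at -0.84 and Tmem181a at -0.79 lay between them in the authors' deposited table. Zp3 encodes a zona pellucida protein of the oocyte coat. The 3 were chosen after their values were seen. Of the listed germline genes other than those described here, 3 had both motifs, a set also formed after values were seen. Syce2 at 0.17 and Wdr77 at 0.10 rose and Ddx4 at -0.18 fell in the authors' deposited table.

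The genes that start meiosis or control RNA in germ cells differed in size of change. Stra8, which cells need to enter meiosis, stood at -1.94 with an adjusted p of 3.62e-124 and a mean of 10.8 CPM in the authors' deposited table. That is 26.0% of the Tex19.1+/- level, and only 16 of the 10128 genes had a lower log2 fold change. If the deposited mean is taken as the average of both genotypes, Stra8 had about 4.46 CPM in Tex19.1-/- cells and 17.1 CPM in Tex19.1+/- cells; such implied levels carry no error, because the table holds none. Dazl, an RNA-binding protein gene that allows germ cells to respond to meiotic cues, stood at -0.15 with an adjusted p of 0.0579 and a mean of 8.93 CPM in the authors' deposited table. The 2 genes have a like mean in CPM, which is not corrected for gene length, and the difference between their changes was not tested.

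Of the 14 genes on the list of meiotic entry and germ cell RNA regulators, 8 were measured, 4 fell and 1 rose, beside 26.5% and 25.2% of all genes, with a median log2 fold change of -0.16 against 0.00 for all genes. Against the spread of genes of like expression 3 were lower and 1 higher. Apart from Stra8 those that fell were Dmrt1, a transcription factor gene of the gonad, at -0.52, Ythdc2, which encodes an RNA helicase needed for meiotic entry, at -0.49, and the germ cell helicase gene Ddx4 at -0.18 in the authors' deposited table. Sohlh2, a transcription factor gene of early germ cells, went the other way at 0.78 in the authors' deposited table. Meioc, the partner of Ythdc2, was at 0.05 (adjusted p = 0.585) and Dnd1 at 0.06 (adjusted p = 0.458), values in the authors' deposited table; both were chosen after their values were seen.

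Among genes of the chromosome axis and the synaptonemal complex, the structure that holds paired homologs together, Hormad1 changed most. HORMAD1 marks unpaired chromosome axes and supports the formation and surveillance of meiotic DNA breaks. Hormad1 stood at -1.20 with an adjusted p of 2.87e-77 and a mean of 19.8 CPM in the authors' deposited table, that is 43.6% of the Tex19.1+/- level, with implied levels of 12.0 CPM in Tex19.1-/- cells and 27.5 CPM in Tex19.1+/- cells. Sycp3, which encodes a core protein of the axis, stood at 0.06 with an adjusted p of 0.454 and a mean of 34.7 CPM in the authors' deposited table. Sycp3 lies wholly within the span of Chpt1 on the opposite strand, which had a log2 fold change of -0.08 and an adjusted p of 0.357 in the authors' deposited table. The library kit marks strand, but the strand setting of the counting is not given in the sources used here, so reads of these 2 genes cannot be told apart with certainty.

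The other measured genes of that structure had small changes. Of 14 listed genes 7 were measured, 2 fell and 3 rose, again beside 26.5% and 25.2% of all genes, with a median of 0.06, and 1 passed in each direction against genes of like expression. Six6os1 was at -0.28 and Syce2 at 0.17, both genes of the central element, in the authors' deposited table. Trip13, whose product removes HORMA-domain proteins from axes, was at 0.10 and the ubiquitin ligase subunit gene Skp1a at 0.40 in the authors' deposited table. Skp1a and Trip13 serve mitotic cells as well. Hormad1 was the only axis gene measured with a change of at least 2-fold.

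Stag3 encodes the STAG subunit found only in meiotic cohesin, the ring that holds sister chromatids together. It stood at -0.77 with an adjusted p of 1.56e-66 and a mean of 40.5 CPM in the authors' deposited table, that is 58.5% of the Tex19.1+/- level, with implied levels of 29.9 CPM in Tex19.1-/- cells and 51.0 CPM in Tex19.1+/- cells. Its counterparts in mitotic cohesin were at 0.18 for Stag1 (adjusted p = 8.4e-05) and -0.05 for Stag2 (adjusted p = 0.346) in the authors' deposited table. All 3 measured genes of the 6 on the meiotic cohesin list fell, where 26.5% of all genes were called lower and 25.2% higher. Without Stag3, chosen with its value known, 2 measured genes of this list are left. Rec8, the meiotic kleisin, was at -0.22 and Sgol2a, a protector of centromeric cohesin also used in mitosis, at -0.09 in the authors' deposited table. Of the 5 mitotic core genes 0 fell and 2 rose by the authors' test, Stag1 and, at 0.09, Smc1a, while Smc3 stood at -0.08 with an adjusted p of 0.0611 in the authors' deposited table. Against the spread of genes of like expression, 0 of these 5 passed, and of the 3 meiotic genes Stag3 passed while Rec8 (adjusted p = 0.972) and Sgol2a (adjusted p = 0.91) did not.

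Genes of meiotic recombination hold no member of the group but share its stage. Of 30 listed, 9 were measured, 4 fell and 2 rose (26.5% and 25.2% over all genes), with a median of -0.08, and against genes of like expression 1 was lower and 0 higher. Zcwpw1, a reader of the histone marks that set recombination sites, was at -0.94, Tex15 at -0.59 and the meiotic recombinase gene Dmc1 at -0.46 in the authors' deposited table. Psmc3ip, whose product assists DMC1, was at 0.23 in the authors' deposited table. Zcwpw1 lies on chromosome 5 among the 10 measured genes that precede Stag3.

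The 3 piRNA genes went in different directions. Piwil2, which encodes the PIWI protein MILI that carries piRNAs, stood at -1.23 with an adjusted p of 4.95e-104 and a mean of 21.5 CPM in the authors' deposited table, that is 42.6% of the Tex19.1+/- level, with implied levels of 12.8 CPM in Tex19.1-/- cells and 30.1 CPM in Tex19.1+/- cells. Mael, a gene of transposon silencing in germ cells, stood at -0.41 with an adjusted p of 8.79e-10 and a mean of 12.5 CPM in the authors' deposited table; against the spread of genes of like expression it did not pass (adjusted p = 0.523). Tdrd12, which encodes a Tudor-domain protein needed to make secondary piRNAs, stood at 0.75 with an adjusted p of 6.09e-42 and a mean of 19.11 CPM in the authors' deposited table. That is 1.68-fold higher, with implied levels of 23.97 CPM in Tex19.1-/- cells and 14.3 CPM in Tex19.1+/- cells, and 89 genes of the table had a higher log2 fold change.

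Of 27 genes on the piRNA list, 12 were measured, 6 fell and 3 rose, beside 26.5% and 25.2% of all genes, with a median of -0.14, and -0.12 over the 9 others. Against the spread of genes of like expression 2 were lower, Piwil2 and Tdrd3, and 1 higher, Tdrd12. Tdrd3, a Tudor-domain gene expressed in many tissues, was at -0.73, Tex15, which acts in piRNA-directed methylation too, at -0.59 and Ddx4 at -0.18 in the authors' deposited table. Prmt5, an arginine methyltransferase gene whose product modifies PIWI proteins and many others, was at 0.16 in the authors' deposited table. Mov10l1, Gpat2 and Pnldc1, chosen after their values were seen, lay between -0.12 and -0.07 and did not pass in the authors' deposited table. Tdrd3 lies on chromosome 14, as Piwil2 does, but from 87416639 to 87545504, where Piwil2 spans 70372477 to 70429383. Prmt5, which rose, lies on chromosome 14 too, from 54507187 to 54517525. The genes beside Tdrd3 and Prmt5 were not analysed here.

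Fmr1nb is an X-linked gene known as a cancer-testis antigen, expressed in testis and in some tumours. It stood at 2.06 with an adjusted p of 1.65e-86 and a mean of 3.95 CPM in the authors' deposited table, 4.16-fold higher, with 4 genes of the table above it. Its mean is close to the lowest in the table, 3.52 CPM, and only 8 genes had a lower mean. The implied levels are 6.37 CPM in Tex19.1-/- cells and 1.53 CPM in Tex19.1+/- cells, so the gene may have passed the authors' filter on low values through the Tex19.1-/- libraries alone. A gene kept in that way had to differ, and its fold change is read with that limit. A processed pseudogene on the opposite strand overlaps 228 bases of it.

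Other genes restricted to testis were split. Of 36 listed, 8 were measured, 4 rose and 3 fell (25.2% and 26.5% over all genes). Their median was 0.11, and -0.18 without Fmr1nb. Against genes of like expression 2 were higher, Fmr1nb and Usp26, and 0 lower. Usp26, an X-linked deubiquitinase gene, was at 1.69 with a mean of 4.25 CPM, again near the lowest mean of the table. At 3.22-fold higher, it too may have passed the filter through the Tex19.1-/- libraries alone. The X-linked gene Mageb16 was at 0.41 in the authors' deposited table. Tuba3a, an alpha-tubulin gene of testis, was at 0.62 and Rpl10l, a ribosomal protein gene of male germ cells, at -0.27 in the authors' deposited table. Tuba3a and Rpl10l have close relatives elsewhere in the genome among which reads may have been split.

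Primordial germ cell genes, many of which ES cells share, were called higher more often than lower. Of 19 listed, 15 were measured, 10 rose and 2 fell, beside 25.2% and 26.5% of all genes, with a median of 0.14. By Bonferroni adjustment 6 were higher and 1 lower, and against the spread of genes of like expression 3 were higher and 0 lower. Ifitm1, a membrane protein gene of early germ cells, was at 1.12, the transcription factor gene Tfap2c at 0.86, the receptor gene Kit at 0.45 and Lin28a, whose product blocks let-7 maturation, at 0.35 in the authors' deposited table. Ifitm1 has close paralogs. Of the 15 listed genes of spermatids, the haploid cells that follow meiosis, 0 are in the table, so a post-meiotic programme was not measured. The 8 germline lists together hold 59 measured genes of 154, of which 23 rose and 22 fell, with a median of -0.04. Without the 9 genes described here 21 of 50 rose and 17 fell, with a median of 0.01.

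**Figure D3:**
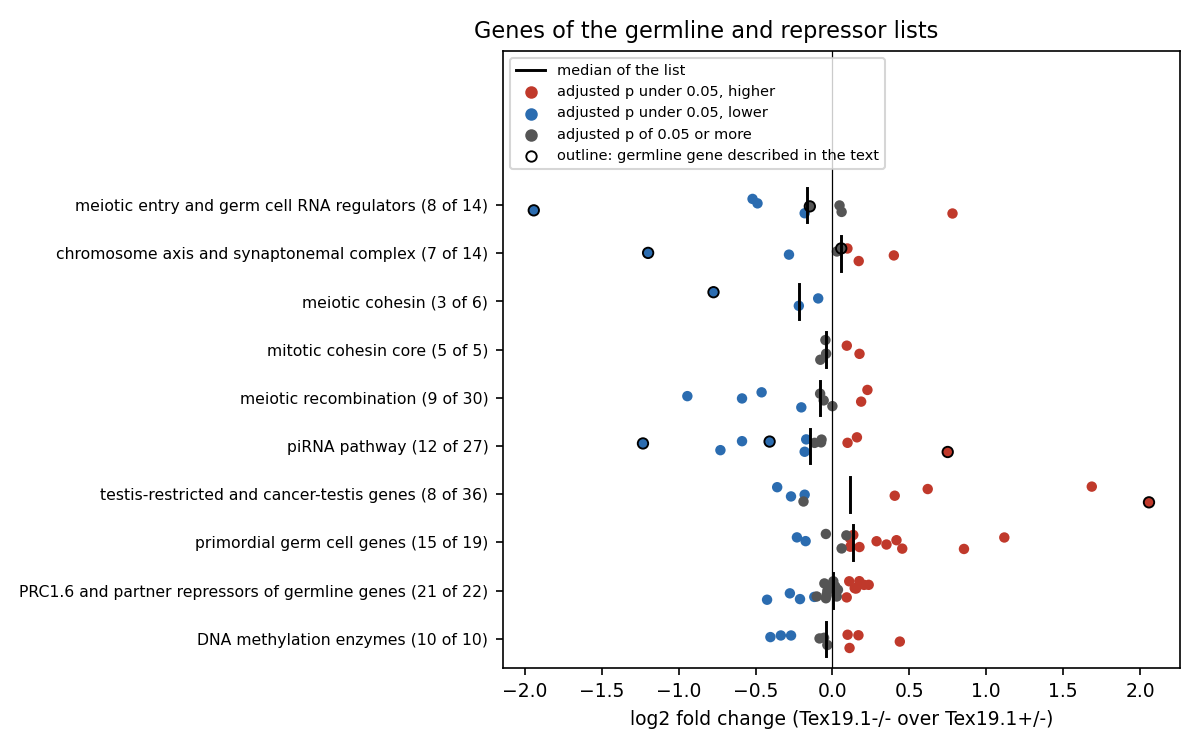
Log2 fold changes (Tex19.1-/- over Tex19.1+/-) of the measured genes of 10 lists, coloured by the authors' adjusted p, with each list's median as a black bar and its measured and listed numbers in brackets. Outlined points are the germline genes described here, which are the lowest points of the meiotic entry, axis, cohesin and piRNA lists and the highest of the piRNA and testis lists, while primordial germ cell genes lie mostly to the right of 0.

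The known repressors of these genes changed in both directions, each by less than 2-fold. Of 22 genes of PRC1.6 and its partners 21 were measured, 7 rose and 4 fell (25.2% and 26.5% over all genes), with a median of 0.01 and values between -0.42 and 0.24. Ehmt2, the H3K9 methyltransferase gene also called G9a, was at -0.42, the Polycomb genes Rybp and Rnf2 at -0.28 and -0.21, and the heterochromatin protein gene Cbx1 at 0.24 in the authors' deposited table. The subunits that read DNA, chosen after their values were seen, were at -0.12 for Mga (adjusted p = 0.00929), -0.03 for Max (adjusted p = 0.502) and -0.10 for E2f6 (adjusted p = 0.0619) in the authors' deposited table. Among the 10 DNA methylation enzyme genes 4 rose and 3 fell: Dnmt3a at 0.44 led the rises, and Tet2 at -0.40, Tet3 at -0.34 and Dnmt3l at -0.27 were the falls in the authors' deposited table. Against the spread of genes of like expression Ehmt2, Tet2 and Dnmt3l were lower (adjusted p = 0.00206, 0.0263 and 0.049), and none of the other genes of these 2 lists passed.

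Neighbouring genes were compared because a shift of a whole chromosome stretch moves every gene in it. Gene positions are those of GENCODE M21 on GRCm38. Piwil2, on chromosome 14 from 70372477 to 70429383 on the minus strand, was surrounded by lower genes: all 10 nearest measured genes fell, 5 on each side, with log2 fold changes from -1.61 to -0.53 and a median of -0.70. The nearest on either side were the zinc transporter gene Slc39a14 at -0.60 and the RNA polymerase III subunit gene Polr3d at -0.53 in the authors' deposited table. Piwil2 lay 0.54 below the median of these genes, and Sorbs3 at -1.61 and Bmp1 at -1.58, chosen after their values were seen, lay lower than it in the authors' deposited table. With 10 genes on each side all 20 fell. How much of the Piwil2 value belongs to the stretch was not tested.

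The other genes were not surrounded by a common shift of this size. Beside Stra8, on chromosome 6 from 34920163 to 34939344, the 10 nearest genes had a median of -0.03 with 4 falls and 1 rise. The lowest were Akr1b8 at -0.83 and Creb3l2 at -0.76, chosen after their values were seen, and none was as low as Stra8. Its nearest neighbours were Wdr91 at -0.48 and Cnot4 at -0.01 in the authors' deposited table. Hormad1, on chromosome 3 from 95559677 to 95587671, had neighbours with a median of -0.11 and a lowest value of -0.34; Arnt, next to it, was at -0.18 and Golph3l at -0.01 in the authors' deposited table. Beside Stag3, on chromosome 5 from 138280240 to 138312393, the median was -0.07 and the lowest value -0.25, with Lamtor4 at 0.18 and Zfp157 at 0.07 as its nearest genes in the authors' deposited table. With 10 genes on each side of Stag3 the lowest value was -0.94, that of Zcwpw1.

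Tdrd12, on chromosome 7 from 35469098 to 35537745, lay 0.65 above the median of its neighbours, which was 0.10. Nudt19, next to it, was at 0.44, the highest of the 10, and Cep89 on the other side at 0.08 in the authors' deposited table. Within 1 Mb, however, Kctd15, chosen after its value was seen, stood at 0.85, above Tdrd12 in the authors' deposited table. Fmr1nb, on chromosome X from 68761839 to 68804567, had 10 neighbours spread over 14.2 Mb with a median of 0.03 and a highest value of 0.53. Fmr1, the fragile X gene beside it, was at 0.10 and Ids on the far side at 0.01 in the authors' deposited table.

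Mael, on chromosome 1 from 166201201 to 166238747, lay 0.40 below the median of its neighbours, which was -0.01, with Gpa33 at 0.02 and Tada1 at 0.07 beside it in the authors' deposited table. Dazl, on chromosome 17 from 50279395 to 50293636, lay 0.04 above a neighbour median of -0.18, between Mocs1 at -0.26 and Gm7334 at 0.05 in the authors' deposited table. Sycp3, on chromosome 10 from 88459569 to 88473236, lay 0.02 below a median of 0.08, and Arl1, its neighbour opposite Chpt1, was at 0.11 in the authors' deposited table.

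**Figure D4:**
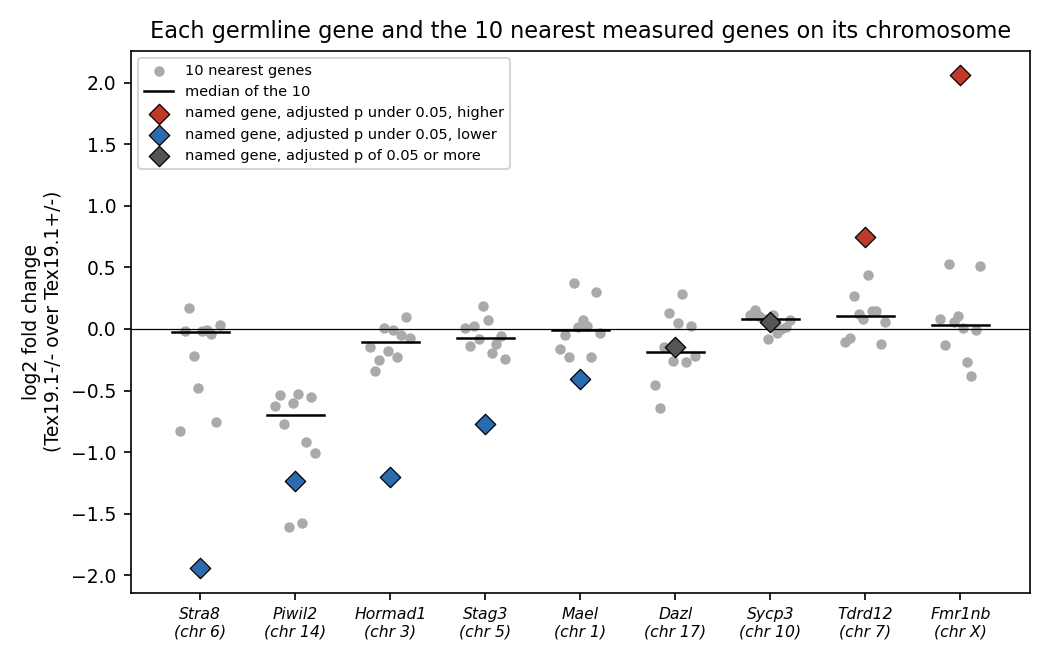
Log2 fold change (Tex19.1-/- over Tex19.1+/-) of each of the 9 measured germline genes (diamonds, coloured by the authors' adjusted p) and of the 10 nearest measured genes on its chromosome (grey points, black bar at their median). All 10 neighbours of Piwil2 lie below -0.5, while the neighbours of Stra8, Hormad1, Stag3, Tdrd12 and Fmr1nb centre near 0 and do not reach the gene they flank.

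Levels can be compared between genes only per length. Divided by the exonic length of the gene in GENCODE, the mean level was 27.4 CPM per kb for Sycp3, 11.4 for Hormad1, 7.21 for Mael, 7.06 for Stag3 and 5.99 for Stra8. The lower levels were 4.41 CPM per kb for Tdrd12, 4.21 for Fmr1nb, 4.06 for Piwil2 and 2.34 for Dazl. Sycp3, the most abundant per length, was the gene with the smallest difference between the genotypes. With no spread per library, neighbours in this order cannot be told apart or ranked with an error.

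Other cell types in the cultures were followed by their markers. All 6 ES cell markers are in the table, at 318.2 to 1566 CPM, of which 3 rose and 1 fell, and their summed implied level was 4922 CPM in Tex19.1-/- cells and 5028 CPM in Tex19.1+/- cells. Of 6 primitive endoderm markers 5 are in the table and all 5 fell, with a summed implied level of 17.8 CPM in Tex19.1-/- cells and 91.4 CPM in Tex19.1+/- cells. Of 6 markers of 2-cell-like cells, the rare ES cells that resemble the early embryo, the 2 measured, Zscan4c and Zscan4f, fell, to 14.7 CPM in sum in Tex19.1-/- cells against 19.3 CPM in Tex19.1+/- cells; both have near-identical copies. Of the fibroblast markers 0 of 6 are in the table, and of 6 Sertoli cell markers 3 are, 1 of which fell. By the authors' adjusted p under 0.05, 25.2% of all genes were called higher and 26.5% lower. Endoderm and 2-cell-like markers thus moved in the direction of Stra8, Piwil2, Hormad1 and Stag3. The ES cell marker Dppa5a at -0.17 and the Sertoli cell marker Rhox5 at -0.36 did so too. The ES cell markers Sox2, Nanog and Zfp42 rose. The part of these cell types in the falls of the germline genes was not tested. In bulk RNA, fewer cells of a type and less RNA per cell cannot be told apart.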

How the data were processed

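RNA from 6 mouse ES cell libraries, 3 of each genotype by the labels, was sequenced from a TruSeq Stranded mRNA kit. The submitters' processing notes name the build mm10 and, as tools, edgeR, HTSeq 0.11.2, TopHat2 2.1.0 and Trim Galore 0.4.1. For the annotation, the filter, the strand setting and the model, nothing is stated in the sources used here. Per the file headers the authors deposited, for each of 10128 genes, a log2 fold change, a mean log2 CPM, a p-value and its false discovery rate. The lowest mean is 3.52 CPM, so genes of lower expression are not in the table. A fit to counts of single libraries had been planned but had no values to run on, so the authors' test stands in its place and precision rests on their p-values. Their adjusted p-values match Benjamini-Hochberg values for 10129 tests.

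The 10 genes and the 11 gene lists were chosen with earlier results of these data known. Of 191 listed genes 95 were measured. Named are the 10 genes, up to 4 other genes per list with the smallest p, the nearest measured gene on each side, and Tex19.1; others are marked as chosen after their values were seen. No list was tested.

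Symbols matched GENCODE M21 for 9587 genes and through older names for 137, leaving 404 without a position. For the spread of genes of like expression, the median of the 301 nearest genes in mean level and 1.4826 times their median absolute deviation gave a normal p with Benjamini-Hochberg adjustment. Other alternatives were a stricter threshold of 0.01, Bonferroni adjustment, a minimum of 16 CPM, and subtracting the overall median, the neighbours' median or a lowess trend (span 0.3, statsmodels 0.14.6) on transcript GC content and length. The p from genes of like expression, a trend on a single covariate and the Benjamini-Hochberg adjustment were tested on simulated data with the same spread for every gene. The other alternatives were not simulated. Python 3.11.15 was used.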

Additional observations from a re-analysis of the deposited data

How the results depend on the processing

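No paired analysis was possible because the deposited table holds no value per library; for the same reason leaving out a replicate and a test with other size factors were not run. Stra8, Piwil2, Hormad1, Stag3, Tdrd12 and Fmr1nb kept their direction under each alternative that gave them a value, and their call at an adjusted p under 0.01, by Bonferroni adjustment and against genes of like expression. The settings that subtract a median or trend keep the authors' p and so cannot test a call; the neighbours' median took Piwil2 to -0.54. With genes of at least 16 CPM only Piwil2, Hormad1, Stag3, Tdrd12 and Sycp3 are left, 1 of them higher and 3 lower, because fewer genes are tested. Over all genes of at least 16 CPM, 1992 were higher and 1833 lower. Mael kept its direction at -0.38 but lost its call against genes of like expression (adjusted p = 0.523). Of the genes without a call, Dazl changed sign, to 0.037, with the median of its neighbours subtracted, and Sycp3 did so both with that median (-0.022) and with the GC and length trend (-0.023) subtracted; the cause was not tested. Over all 10128 genes 970 were higher and 1443 lower by Bonferroni adjustment, and 191 and 438 against genes of like expression. The germline lists together hold 59 measured genes, the 9 described here included. Of these 13 were higher and 15 lower by Bonferroni adjustment, and 8 higher and 8 lower against genes of like expression. The E2F6-type motif was found in 3 genes in place of 5 when only the 250 bases before the start were searched, by construction, since the matches of Stag3 and Sycp1 reach past the start. Medians of neighbouring genes moved by less than the spread of those genes. Without the depth and spread of single libraries, small differences such as that of Dazl cannot be judged further.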
